A study of Homo sapiens with 12 samples.

Results

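The 10 genes described here belong to the canonical Wnt pathway. They are the co-receptors LRP5 and LRP6, the beta-catenin destruction complex genes AXIN1, AXIN2, APC and GSK3B, the feedback inhibitor NKD1, beta-catenin itself (CTNNB1), and the DNA-binding factors TCF7L1 and TCF7L2. They were found by gene name among the 58302 genes of the expression files, each name matched 1 gene, and 8 of the 10 were expressed well enough to be tested. TCF7L1 was put on the list with its values in these same libraries known, so its difference after NUF2 depletion is not independent evidence. A wider list of 100 Wnt genes, sorted by role, gives the surroundings. All levels are FPKM, fragments scaled to exon length and library size. The length is that of all annotated exons of a gene together, whichever transcript is expressed, so levels of different genes compare only roughly.

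In the canonical pathway, WNT proteins bind a Frizzled receptor together with LRP5 or LRP6 at the cell surface. Without a ligand, the scaffold proteins AXIN and APC hold beta-catenin while the kinase GSK3B and casein kinase 1 phosphorylate it, which marks it for degradation. With a ligand, the complex is inactivated, and beta-catenin enters the nucleus and binds proteins of the TCF/LEF family. TCF7L1 acts mainly as a repressor in this family, and TCF7L2 can repress or activate. AXIN2, NKD1 and SP5 are transcribed in response to the pathway in many tissues and feed back on it. The transcript of CTNNB1 is not a measure of beta-catenin activity, because the pathway acts on the stability of the protein.

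The libraries came from 769-P and ACHN, human kidney cancer lines that the labels call clear cell renal cell carcinoma cells, each grown in its own medium. Cells of both lines had been transfected for 48 h with siNUF2, 2 siRNAs against NUF2 used as a mixture, or with siControl, which gives 4 groups of 3 libraries and 12 in all. NUF2 is a subunit of the kinetochore complex that holds chromosomes on the spindle, and no group carries any other treatment or allele that the labels name. Nothing in the sources says that the 3 repeats of a group were separate cultures, so the p-values measure the spread between these libraries, which may be technical.

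NUF2 was measured first as a check of the labels. In 769-P it was 19.4, 17.8 and 17.8 FPKM under siControl and 4.17, 3.86 and 3.01 FPKM under siNUF2. In ACHN it was 11.6, 15.0 and 14.8 FPKM under siControl and 2.16, 5.14 and 4.25 FPKM under siNUF2, so the groups did not overlap in either line. NUF2 passed in 769-P (log2 fold change -2.29, adjusted p = 0.00118, limma). In ACHN fitted alone (-1.87), it passed with the repeat number as a block (0.0123) and not without it (0.224). Without the block, NUF2 in ACHN passed with all 12 libraries in one fit (0.00988, limma). It did not pass with the block and no filter on low values (0.0677, limma). Reads recovered from the FPKM numbered 29157435 to 38681799 per library. The kidney tubule factors PAX8 and PAX2 were expressed in all libraries, the lowest value being 5.52 FPKM, whereas the tubule cadherin CDH6 was at 2.35 to 8.19 FPKM in 769-P and at most 0.00472 FPKM in ACHN. The leukocyte and endothelial markers PTPRC, PECAM1 and VWF were at most 0.0520 FPKM in both lines, while the fibroblast collagen gene COL1A1 reached 3.87 FPKM in ACHN. Libraries of ACHN with the same repeat number resembled each other under both siRNAs. The mean of the 2 ACHN libraries of a repeat differed from that of the other 4 by an SD over genes of 0.531, 0.585 and 0.407 for repeats 1, 2 and 3 (log2 scale). For these reasons, fits with the repeat number as a block are given beside the others for the siRNA comparisons within a line.

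TCF7L1 (ENSG00000152284) is a forward-strand gene at chr2:85133410-85310388 (GRCh38), and TCF7L2 (ENSG00000148737) one at chr10:112950250-113167678. The paralogs are close enough in sequence that shared reads had to be considered. The longest stretch that their GENCODE transcripts TCF7L1-201 and TCF7L2-201 have in common is 26 bases, in exon 10 of the 12 exons of TCF7L1, within the coding sequence, chr2:85306485-85306510, and it is shown because it limits how far the levels of the 2 genes could be confused:
TCF7L1 and TCF7L2, shared stretch: tactacgagctggcccggaaggagcg
TCF7L1 shares 29 bases at most with LEF1 and 14 with TCF7 in the transcripts compared, LRP5 shares 25 with LRP6, AXIN1 shares 19 with AXIN2, and GSK3B shares 20 with GSK3A. The sources used here do not say whether the counting used strand. AL158212.2, on the opposite strand, overlaps 300 exon bases of TCF7L2 and was at most 0.713 FPKM, and AC007608.1, also opposite, overlaps 67 of NKD1 and was at 0. On the same strand, AC004805.1 shares 1316 exon bases with AXIN2 and AC008575.1 shares 230 with APC, at no more than 0.0191 and 0.0449 FPKM. Reads in these overlaps cannot be told apart, so the level of AXIN2 in particular is uncertain.

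The 250 bases before the RefSeq start of TCF7L1 (GRCh38.p14, forward strand, chr2:85133142-85133391) are given next because the results below turn on this gene:
TCF7L1 promoter: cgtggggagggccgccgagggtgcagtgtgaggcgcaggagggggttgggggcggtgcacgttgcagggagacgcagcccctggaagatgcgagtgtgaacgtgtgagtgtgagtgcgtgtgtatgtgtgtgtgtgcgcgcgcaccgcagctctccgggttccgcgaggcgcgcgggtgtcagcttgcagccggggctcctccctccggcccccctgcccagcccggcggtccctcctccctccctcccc
It is 72.0% G or C. The letters CTTTGAT and CTTTGAA, the core that TCF/LEF factors are known to bind, were searched on both strands of the 300 bases around each start. Neither is found there for any of the 7 members in the RefSeq promoter table. Of all 35116 promoters, 6.86% held at least 1 match, so 7 promoters are too few to show a lack. AXIN2, NKD1 and LRP6 were not matched.

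Under siControl, CTNNB1 was the highest of the 10 genes in both lines and NKD1 the lowest, and the levels spanned more than 2 orders of magnitude. In 769-P the order was CTNNB1 at 33.3 ± 1.69 FPKM (SD, n = 3), LRP5 at 26.9 ± 2.32, AXIN1 at 12.2 ± 1.44, GSK3B at 7.69 ± 0.275, LRP6 at 6.09 ± 0.380, TCF7L2 at 3.23 ± 0.0786 and APC at 2.34 ± 0.119 FPKM. These were followed by TCF7L1 at 0.391 ± 0.0955 and AXIN2 at 0.338 ± 0.0676 FPKM, whose libraries overlapped, and by NKD1 at 0.0661 ± 0.0266 FPKM. All other neighbours in this order were separated in every library.

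In ACHN the order began with CTNNB1 at 37.0 ± 4.13 FPKM. GSK3B at 10.6 ± 0.742, LRP5 at 10.3 ± 2.28, AXIN1 at 9.44 ± 0.562 and LRP6 at 8.76 ± 0.391 FPKM came next, and neighbours among these 4 overlapped. TCF7L2 at 3.29 ± 0.864, APC at 1.78 ± 0.145, TCF7L1 at 1.38 ± 0.182, AXIN2 at 0.244 ± 0.0847 and NKD1 at 0.00852 ± 0.00323 FPKM were separated from each other in every library. The Wnt-induced feedback genes AXIN2 and NKD1 were thus at the bottom of the order in ACHN, and in 769-P together with TCF7L1. The rank of NKD1 by FPKM depends on its exon length, 17425 bases against 5226 for AXIN2. In the 769-P controls the reads of NKD1 (21 to 46) overlapped those of AXIN2 (40 to 64). In the ACHN controls they did not (3 to 8 and 36 to 56).

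**Figure D1:**
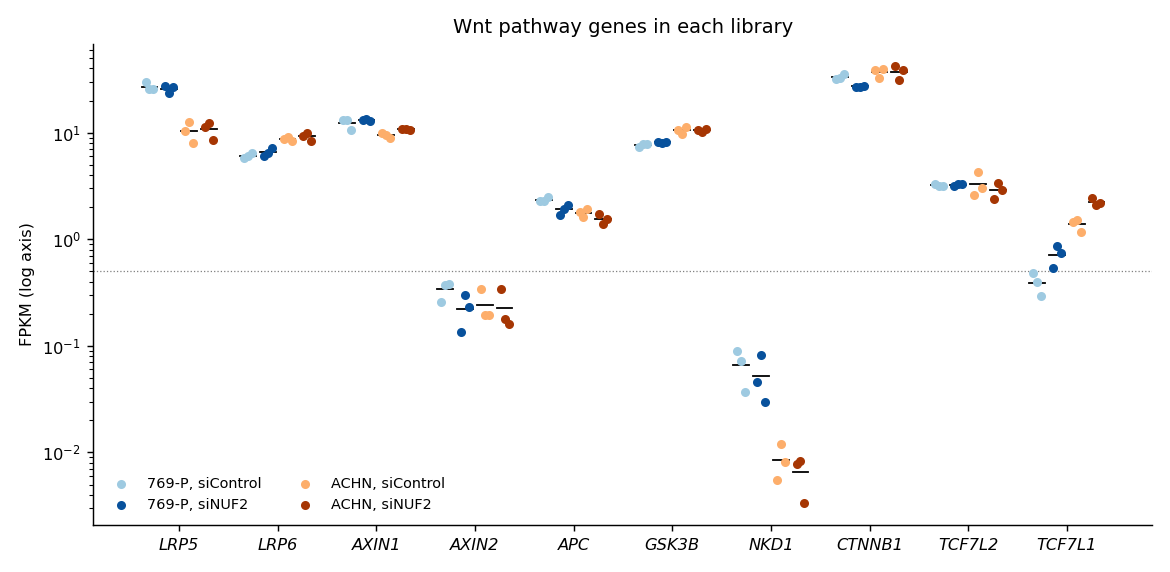
FPKM on a log axis for the 10 Wnt pathway genes in each of the 12 libraries (points, 3 per group) with the group mean (bar); the dotted line marks 0.5 FPKM, the level of the filter. AXIN2 and NKD1 stay below it in all libraries, TCF7L1 crosses it in 769-P under siNUF2 and is higher in ACHN than in 769-P, and LRP5 is higher in 769-P.

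The baseline comparison of the lines asked which Wnt genes each line expressed under siControl, without NUF2 depletion. With limma on log2(FPKM + 0.1) over 15377 genes, 31.9% of all genes were higher and 29.6% lower in 769-P than in ACHN at an adjusted p under 0.05. Of the 8 members tested, LRP5, AXIN1 and APC were higher, TCF7L1, LRP6 and GSK3B were lower, and CTNNB1 and TCF7L2 did not pass, which is close to the background of all genes. Line and culture medium differ together here and cannot be told apart.

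LRP5 and LRP6, the co-receptors that carry the signal from a bound WNT protein, differed in opposite directions. LRP5 was 29.6, 25.8 and 25.4 FPKM in 769-P and 10.4, 12.6 and 8.0 FPKM in ACHN, a log2 difference of 1.43 ± 0.169 (SE, adjusted p = 0.000429, limma). LRP6 was 5.74, 6.02 and 6.49 FPKM in 769-P and 8.71, 9.18 and 8.40 FPKM in ACHN, a log2 difference of -0.49 ± 0.0999 (adjusted p = 0.00487, limma). Neither pair of groups overlapped. The ratio of LRP5 to LRP6 was 4.45 ± 0.639 in 769-P and 1.17 ± 0.209 in ACHN (SD, n = 3). By FPKM, LRP5 was thus the main co-receptor transcript in 769-P and the co-receptors were near parity in ACHN.

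Among the destruction complex genes, the differences were smaller. GSK3B, the kinase that phosphorylates beta-catenin, was 7.38, 7.81 and 7.89 FPKM in 769-P and 10.7, 9.78 and 11.3 FPKM in ACHN (log2 difference -0.42 ± 0.0991, adjusted p = 0.0088, limma). AXIN1, the scaffold whose amount is held to limit the complex, had a log2 difference of 0.39 ± 0.117 (adjusted p = 0.0242, limma). APC, the scaffold lost in most colorectal cancers, had one of 0.41 ± 0.133 (adjusted p = 0.0325, limma). The call of AXIN1 was lost without repeat 1 or 2 of 769-P or repeat 3 of ACHN (adjusted p 0.0682 to 0.0915, limma), and that of APC without any repeat of 769-P or without repeat 2 of ACHN (0.0639 to 0.103). Their groups were separated in all libraries, with APC at 2.26, 2.29 and 2.48 FPKM in 769-P and 1.80, 1.62 and 1.91 FPKM in ACHN.

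The factors at the end of the pathway differed by gene. TCF7L1 was 0.485, 0.396 and 0.294 FPKM in 769-P and 1.46, 1.51 and 1.17 FPKM in ACHN, and the groups did not overlap. Its log2 difference was -1.58 ± 0.215 (adjusted p = 0.000798, limma), and it kept its call in all alternatives run, at log2 differences of -1.80 to -0.76. The mean FPKM in 769-P, with no pseudocount, was 0.284 times that in ACHN. TCF7L1 entered this fit only through its ACHN libraries, as all 769-P control libraries were under the filter of 0.5 FPKM, at 42 to 63 reads. In the filtered fits it therefore had to differ, so its p-values there are no independent support. With no filter on low values the adjusted p was 0.00301 (limma). TCF7L2 was 3.23 FPKM against 3.29 FPKM (log2 difference 0.03, 95% confidence interval -0.42 to 0.48), and CTNNB1 33.3 against 37.0 FPKM (-0.12, -0.38 to 0.14), and the libraries of both genes overlapped. AXIN2 overlapped between the lines. NKD1, an inhibitor that binds dishevelled, did not overlap, at 21 to 46 reads per 769-P control library and 3 to 8 per ACHN control library, below the level tested.

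The other TCF/LEF genes gave the family a different make-up in each line. The 4 genes summed to 5.67 ± 0.168 FPKM in 769-P and 5.40 ± 0.738 FPKM in ACHN under siControl (SD, n = 3). TCF7L1 made up 8.46, 7.22 and 5.07% of this sum in 769-P and 26.9, 24.7 and 25.2% in ACHN. LEF1, mainly an activator, made up 21.8 ± 4.74% in 769-P and 4.67 ± 3.30% in ACHN, and TCF7L2 was the main transcript in both, at 56.9 ± 1.86% and 60.8 ± 11.5%. An exact permutation test of 3 libraries against 3 cannot give a p below 0.1, and the shares of TCF7L1 and LEF1 each gave that value. TCF7L1 thus had the lowest mean share of the 4 genes in 769-P and the highest after TCF7L2 in ACHN.

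Of the wider list, 61 of 100 genes could be tested at baseline, and 21 were higher in 769-P, 20 lower and 20 did not pass, with a median log2 difference of -0.02 against 0.03 over all genes tested. Genes too low to be tested in either line include all 4 R-spondins, the R-spondin receptors LGR5 and LGR6, WNT1, WNT3A and WNT5A, and the inhibitors SFRP1, SFRP2, WIF1 and SOST. Among ligands, WNT7B, a ligand of the developing kidney collecting system, was 49.7, 43.3 and 38.9 FPKM in 769-P and 0.0757, 0.113 and 0.0507 FPKM in ACHN, where it rested on 9 to 22 reads (log2 difference 7.97 ± 0.173, adjusted p = 9.78e-07, limma). WNT7B passed the filter only through 769-P and so had to differ. Its log2 difference ran from 5.39 to 9.15 over the alternatives. WNT5B, usually classed as a non-canonical ligand, was lower in 769-P, at 1.67, 1.25 and 1.14 FPKM in 769-P and 34.6, 13.7 and 14.0 FPKM in ACHN (log2 difference -3.69 ± 0.368, adjusted p = 0.000198, limma). WNT2B followed it, at 0.116 to 0.211 FPKM in 769-P and 1.99 to 8.10 FPKM in ACHN.

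WNT7B alone made up 88.8 ± 0.332% of the summed ligand FPKM in 769-P, and WNT5B 77.2, 48.2 and 63.4% in ACHN, while the sum itself was 49.5 ± 5.94 and 31.8 ± 11.7 FPKM (SD, n = 3). WLS, the carrier that brings WNT proteins to the cell surface, was lower in 769-P, at 4.16, 6.57 and 7.86 FPKM against 15.4, 17.9 and 19.2 FPKM (log2 difference -1.50 ± 0.236, adjusted p = 0.00155, limma). The most abundant ligand transcript thus differed between the lines.

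Frizzled receptors summed to 61.3 ± 5.87 FPKM in 769-P and 72.3 ± 22.2 FPKM in ACHN. FZD6 was the main one in 769-P, at 50.9 ± 2.08% of the sum, and was higher there than in ACHN (log2 difference 0.93 ± 0.116, adjusted p = 0.000537, limma). FZD8 was also higher in 769-P (3.33 ± 0.193), whereas FZD7 was lower (-2.88 ± 0.214), as was the WNT5A receptor ROR1 (-2.58 ± 0.235). FZD2, the highest receptor on average in ACHN, was 17.0, 55.9 and 16.6 FPKM under siControl and 16.8, 64.0 and 20.03 FPKM under siNUF2, so both libraries of repeat 2 held more than any other library. LGR4, the R-spondin receptor expressed in both lines, was lowest in the same pair of ACHN libraries, at 6.08 and 4.47 FPKM against 15.5 to 34.3 FPKM in the other 4.

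**Figure D2:**
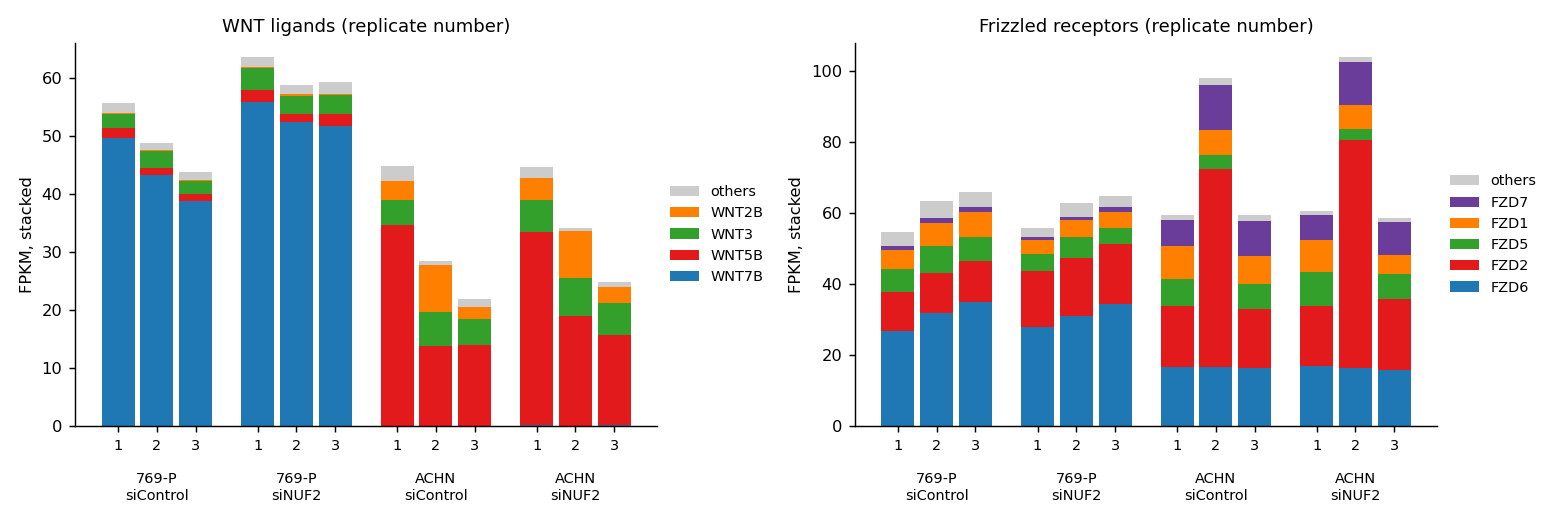
Stacked FPKM of the 19 WNT ligands (left) and the 10 Frizzled receptors (right) in each library, by line, siRNA and replicate number, with the most abundant genes in colour and the rest summed in grey. WNT7B fills most of each 769-P bar and WNT5B is the largest part in ACHN; FZD2 is raised in both ACHN libraries of replicate 2.

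Among nuclear partners and targets, the co-repressor TLE1 was higher in 769-P (23.7 against 10.1 FPKM, log2 difference 1.29 ± 0.231, adjusted p = 0.0027, limma), and PYGO1, a co-activator that docks to beta-catenin through BCL9, was lower (0.158 against 2.69 FPKM, -3.37 ± 0.264). The secreted glycoprotein DKK3 was the highest gene of the inhibitor class in both lines and was lower in 769-P, at 7.45 against 46.0 FPKM. BAMBI, a decoy receptor of the TGF-beta pathway that Wnt signalling can induce, was higher in 769-P (4.56 against 0.341 FPKM, 3.46 ± 0.245), and so was cyclin D1, CCND1 (267 against 70.9 FPKM, 2.15 ± 0.467). WNT7B, FZD8 and BAMBI passed the filter only through 769-P, and TCF7L1, WNT2B, PYGO1 and SP5 only through ACHN, so each of them had to differ.

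**Figure D3:**
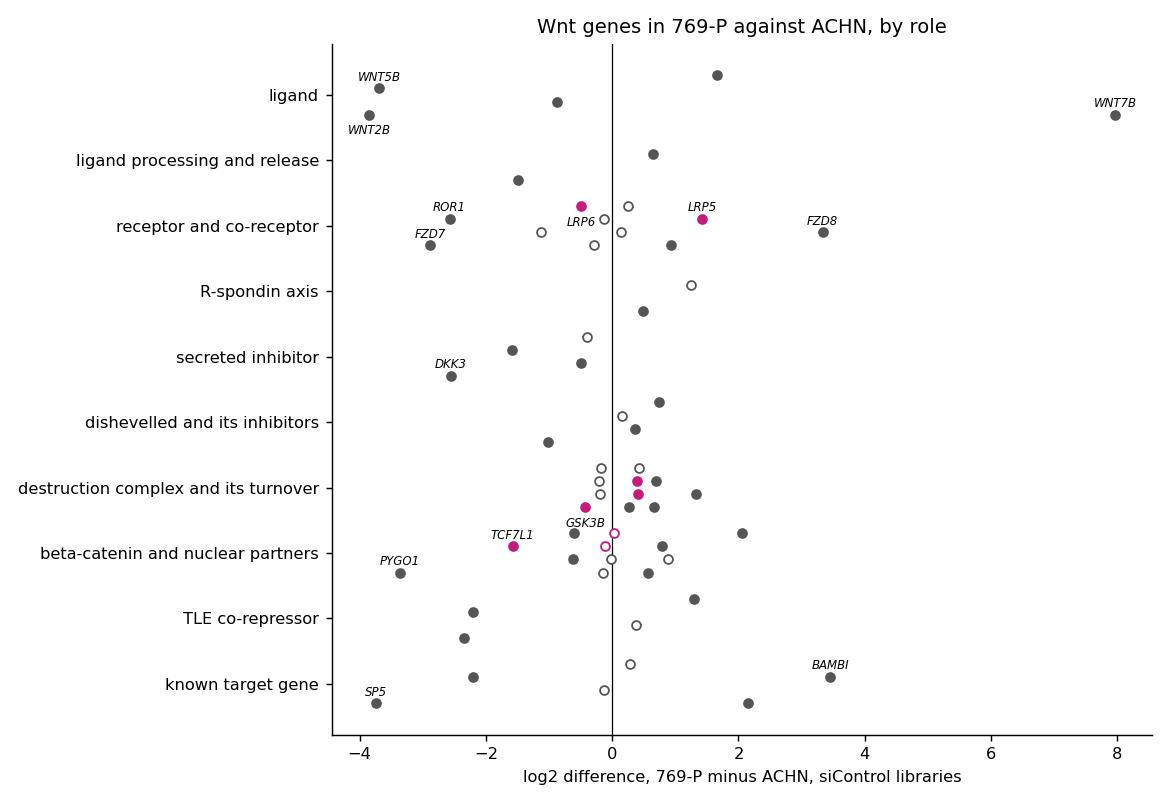
Log2 difference between 769-P and ACHN under siControl for the 61 tested Wnt genes, 1 point per gene, in rows by role; filled points passed an adjusted p under 0.05 and members of the list of 10 are in pink. Ligands are the most spread, from WNT2B and WNT5B at the left to WNT7B at the right; the position of SP5, listed at 0 in 769-P, depends on the pseudocount.

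SP5, a transcription factor induced directly by beta-catenin in many tissues, had 0 reads in all 6 libraries of 769-P. In ACHN it was 1.18, 0.945 and 1.74 FPKM under siControl and 1.01, 1.05 and 1.47 FPKM under siNUF2, and no fold is given against a group at 0. Its promoter is shown because it holds 3 matches to the TCF/LEF core, in capitals, at 148, 109 and 84 bases before the RefSeq start (GRCh38.p14, forward strand, chr2:170715087-170715336):
SP5 promoter: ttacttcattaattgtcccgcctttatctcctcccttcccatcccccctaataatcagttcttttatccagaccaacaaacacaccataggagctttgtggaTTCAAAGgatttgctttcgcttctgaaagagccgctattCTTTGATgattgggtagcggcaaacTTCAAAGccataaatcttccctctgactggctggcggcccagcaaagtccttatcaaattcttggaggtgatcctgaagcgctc
TTCAAAG is CTTTGAA read on the other strand. Of all 35116 promoters, 9 held 3 or more matches and 6.86% held at least 1. Of the 73 genes of the wider list that were in the RefSeq table, DACT1, DKK1, SP5 and TLE4 held at least 1. A match describes the letters and is not evidence of binding.

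The main question of the study's design was what NUF2 depletion changed. In 769-P, 5.29% of 14160 genes rose and 4.74% fell after siNUF2 without the block, and 13.6% rose and 14.0% fell with the replicate number as a block. In ACHN, 0.0% of 15116 genes passed with limma without the block, although 1238 had an unadjusted p under 0.05, and limma-voom on the recovered reads also called 0. With the block, 7.14% rose and 5.05% fell in ACHN. Against this background, 1 of the 8 members tested changed in 769-P, and 1 changed in ACHN with the block only. Groups without overlap are described for single genes here and at baseline. The share of all genes without overlap was not counted, and in 769-P 3891 of 14160 genes had an unadjusted p under 0.05 (limma, no block). A separation alone therefore does not set a gene apart from the background.

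TCF7L1 was higher after siNUF2 in every repeat of both lines. In 769-P it was 0.534, 0.866 and 0.736 FPKM under siNUF2 against 0.485, 0.396 and 0.294 FPKM under siControl, or 74 to 110 reads against 42 to 63. The groups did not overlap, but the differences by repeat number were unequal, at 0.12, 0.96 and 1.09 on the log2 scale. The log2 fold change was 0.73 ± 0.277 (SE, 95% confidence interval 0.08 to 1.38) and did not pass, with an adjusted p of 0.145 without the block and 0.118 with it (limma). In 769-P the gene passed the filter only through its siNUF2 libraries, which is the group in which it was higher.

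In ACHN, TCF7L1 was 2.42, 2.11 and 2.18 FPKM under siNUF2 against 1.46, 1.51 and 1.17 FPKM under siControl, on 182 to 390 reads, and the groups did not overlap. The log2 fold change was 0.68 ± 0.148, with an adjusted p of 0.290 without the block and 0.0277 with it (limma). Without both libraries of repeat 2, it was 0.79 ± 0.189. With all 12 libraries in one fit and no block, it was 0.67 ± 0.199, with an adjusted p of 0.167 (limma). With the block and no filter on low values, the adjusted p was 0.101, so the call in ACHN needs both the block and the filter. Mean levels under siNUF2 were 1.82 times those under siControl in 769-P and 1.62 times in ACHN. The exact permutation test gave 0.1 in each line, the smallest value that 3 libraries against 3 allow.

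The share of TCF7L1 in the TCF/LEF family was higher in all siNUF2 libraries. It was 10.1, 15.3 and 13.3% in 769-P against 8.46, 7.22 and 5.07% under siControl, and 41.5, 36.6 and 40.8% in ACHN against 26.9, 24.7 and 25.2%. The family sum differed by -0.167 FPKM in 769-P and 0.253 FPKM in ACHN, with exact permutation p of 0.3 and 0.7. The log2 fold change of TCF7L2 was 0.02 in 769-P (95% confidence interval -0.17 to 0.21) and -0.15 in ACHN (-0.69 to 0.38), and the libraries overlapped in both. The ratio of TCF7L2 to TCF7L1 was 4.74 ± 1.11 against 8.57 ± 2.03 in 769-P and 1.30 ± 0.305 against 2.39 ± 0.549 in ACHN (SD, n = 3). TCF7 and LEF1 did not pass in 769-P and were under the filter in ACHN. TCF7 was 0.630, 0.591 and 0.491 FPKM under siNUF2 and 0.948, 0.713 and 0.786 FPKM under siControl in 769-P, without overlap, and its share of the family was 10.4 ± 1.48% against 14.4 ± 1.91% (SD, n = 3, exact permutation p = 0.1). In ACHN TCF7 was lower under siNUF2 in each repeat, with overlapping groups, and it was high in both ACHN libraries of repeat 1, at 0.915 and 0.698 FPKM against 0.146 to 0.294 FPKM in the other 4.

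**Figure D4:**
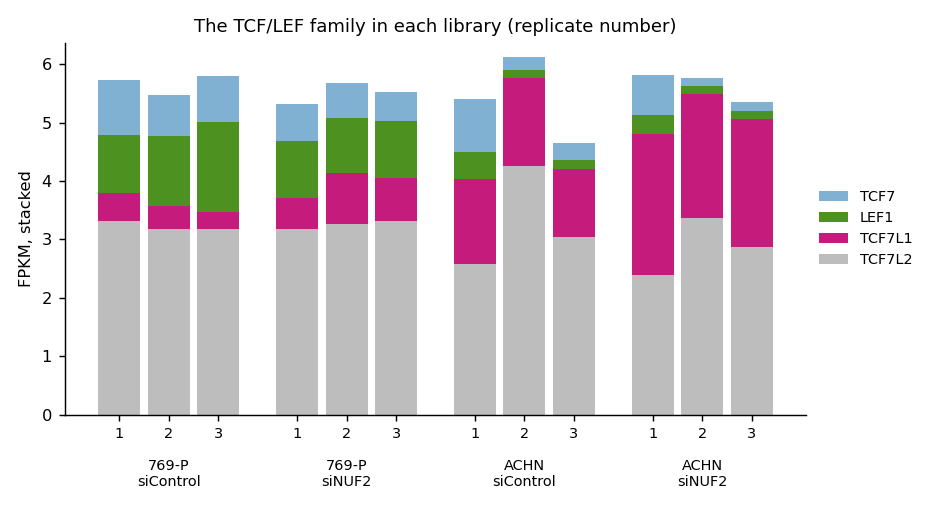
FPKM of the 4 TCF/LEF genes stacked for each library, by line, siRNA and replicate number. The total stays between 4.65 and 6.12 FPKM while the TCF7L1 part (pink) is larger in each siNUF2 library than in any siControl library of the same line.

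CTNNB1 fell in 769-P. It was 27.1, 26.8 and 27.5 FPKM under siNUF2 and 32.1, 32.6 and 35.2 FPKM under siControl, on 9197 to 13609 reads per library, and the siNUF2 libraries lay closely together below all controls. The mean FPKM under siNUF2 was 0.815 times the control mean. The log2 fold change was -0.28 ± 0.0642 (SE), with an adjusted p of 0.038 without the block and 0.0129 with it (limma). The call was lost when any 1 of the 6 libraries was left out (adjusted p 0.0627 to 0.113), with no filter (0.0614) and with all 12 libraries in one fit (0.202), at log2 fold changes of -0.30 to -0.24. In ACHN, CTNNB1 was 42.3, 31.1 and 38.9 FPKM against 38.9, 32.3 and 39.9 FPKM, with overlapping groups and the 2 lowest values in repeat 2 (log2 fold change 0.03, 95% confidence interval -0.34 to 0.40).

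APC and AXIN1 were separated by siRNA in 1 line each without passing the test, and how many of all genes were separated in this way was not counted. APC was 1.68, 1.94 and 2.09 FPKM under siNUF2 and 2.26, 2.29 and 2.48 FPKM under siControl in 769-P (log2 fold change -0.28 ± 0.114, adjusted p = 0.165 without and 0.0589 with the block, limma), and in ACHN its log2 fold change was -0.17 ± 0.141 with overlapping groups. AXIN1 was 10.8, 10.9 and 10.7 FPKM under siNUF2 and 10.01, 9.44 and 8.88 FPKM under siControl in ACHN (0.21 ± 0.0882, adjusted p = 0.616 without and 0.0621 with the block, limma), and its log2 fold change in 769-P was 0.12 ± 0.0992.

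The co-receptors and GSK3B did not pass in either line. LRP5 had log2 fold changes of -0.05 (95% confidence interval -0.27 to 0.18) for 769-P and of 0.08 (-0.44 to 0.61) for ACHN, and LRP6 of 0.12 (-0.10 to 0.34) and 0.09 (-0.16 to 0.33). GSK3B had 0.08 (-0.08 to 0.25) in 769-P, where all siNUF2 libraries were above all controls, at 8.19, 7.91 and 8.23 FPKM against 7.38, 7.81 and 7.89 FPKM, and 0.01 (-0.22 to 0.24) in ACHN. The intervals of the co-receptors are wider in ACHN, where LRP5 ranged from 8.0 to 12.6 FPKM among the controls alone.

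**Figure D5:**
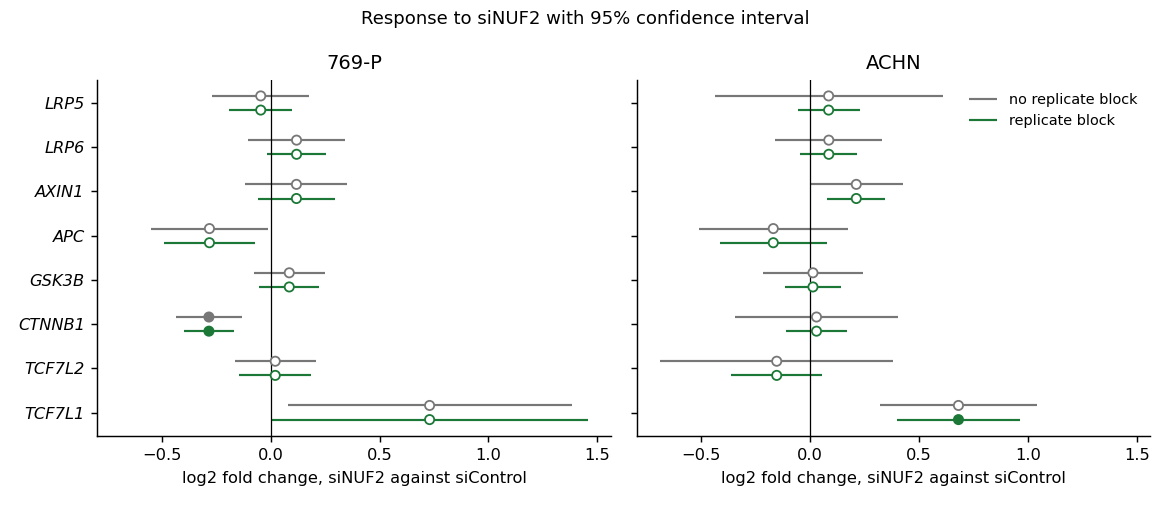
Log2 fold change of siNUF2 against siControl with its 95% confidence interval for the 8 members tested, in 769-P (left) and ACHN (right), without the replicate block (grey) and with it (green); filled points passed an adjusted p under 0.05. CTNNB1 is called in 769-P in both fits, and TCF7L1 in ACHN with the block only, while its interval in 769-P is the widest there.

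AXIN2 and NKD1, the Wnt-induced members, were below the filter in all libraries and were not tested with the others. AXIN2 was 0.134, 0.299 and 0.230 FPKM under siNUF2 against 0.260, 0.376 and 0.378 FPKM under siControl in 769-P, on 22 to 64 reads, lower in each repeat but with overlapping groups. In ACHN it was 0.340, 0.177 and 0.162 FPKM against 0.341, 0.194 and 0.196 FPKM, with repeat 1 highest under both siRNAs, again lower in each repeat with overlapping groups. NKD1 rested on 16 to 46 reads in 769-P and 2 to 8 reads in ACHN, and its groups overlapped in both lines. In fits with no filter on low values, neither gene passed in either line, with or without the block (adjusted p of at least 0.357, limma).

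Whether the response differed between the lines was tested as an interaction over all 12 libraries. It called 0.0% of 16570 genes with limma without the block, with 772 at an unadjusted p under 0.05 and 0 calls with limma-voom, and 1.39% with the block. None of the 8 members passed in either fit. For TCF7L1 the difference between the responses was 0.06 on the log2 scale (95% confidence interval -0.56 to 0.68), an interval wide enough to hold responses of unequal size. For CTNNB1 it was -0.30 (-0.67 to 0.06), with an adjusted p of 1.00 without and 0.0779 with the block (limma).

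In the wider list, 57 of 100 genes could be tested in 769-P. Of these 4 rose and 5 fell, CTNNB1 included, and with the block 9 rose and 10 fell. These shares are near the 5.29 and 4.74% of all genes without the block and the 13.6 and 14.0% with it. The median log2 fold change was -0.03 against -0.01 over all genes tested. Of the 11 beta-catenin and nuclear partner genes tested, 2 rose and 1 fell. Those that rose can each bind beta-catenin and keep it from TCF/LEF factors, as other proteins of the list also can. CTNNBIP1, also called ICAT, went from 2.21, 2.90 and 2.40 to 4.07, 4.09 and 3.98 FPKM (log2 fold change 0.69 ± 0.113, adjusted p = 0.0164, limma), and CBY1, chibby, went from 5.47, 5.25 and 5.06 to 6.27, 7.21 and 7.73 FPKM (0.42 ± 0.0959, adjusted p = 0.0382, limma). The ratio of CTNNB1 to CTNNBIP1 was 6.71 ± 0.185 under siNUF2 and 13.5 ± 1.95 under siControl in 769-P, and 13.5 ± 1.88 and 14.4 ± 2.10 in ACHN (SD, n = 3), a ratio chosen after the values were seen. The difference in the CTNNBIP1 response between the lines did not pass (0.58 ± 0.173, adjusted p = 0.913 without and 0.0755 with the block, limma).

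Of the 11 receptor and co-receptor genes tested in 769-P, 1 rose and 1 fell without the block. Over all genes 5.29% rose and 4.74% fell, so these counts are near the background. FZD2 rose from 10.9, 11.1 and 11.5 to 15.5, 16.4 and 17.1 FPKM (0.55 ± 0.0683, adjusted p = 0.00813, limma), and FZD1 fell from 5.45, 6.62 and 7.09 to 3.79, 4.64 and 4.49 FPKM (-0.55 ± 0.125, adjusted p = 0.039, limma). FZD8 and ROR1 passed with the block only, at -0.60 and 0.53 on the log2 scale, and did not with the block and no filter (adjusted p = 0.0533 and 0.141, limma). FZD6, the main receptor, gave 0.01 (95% confidence interval -0.27 to 0.28). The summed Frizzled FPKM was 61.1 ± 4.80 under siNUF2 and 61.3 ± 5.87 under siControl (SD, n = 3). WNT7B, the main ligand, was higher in all siNUF2 libraries, at 55.9, 52.5 and 51.7 FPKM against 49.7, 43.3 and 38.9 FPKM, and passed with the block (0.29 ± 0.0991, adjusted p = 0.110 without and 0.0227 with it, limma), or without siControl repeat 1 (0.0432), but not with the block and no filter (0.079).

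Of the 5 target genes that could be tested in 769-P, CCND1 and BAMBI fell and 3 did not pass. Over all genes 4.74% fell without the block, and 5 genes are too few to set beside that share. The log2 fold changes of the 5 ran from -1.01 to 0.172, with a median of -0.152. CCND1, which many pathways besides Wnt control, was 165, 119 and 115 FPKM under siNUF2 and 298, 238 and 266 FPKM under siControl (log2 fold change -1.01 ± 0.154, adjusted p = 0.0134, limma). BAMBI was 3.22, 2.66 and 2.80 FPKM under siNUF2 and 4.61, 3.89 and 5.16 FPKM under siControl (-0.62 ± 0.131, adjusted p = 0.0314, limma). CD44 gave -0.10 (95% confidence interval -0.44 to 0.23). Among secreted inhibitors, DKK3 rose by 0.52 ± 0.120 (adjusted p = 0.0393, limma), from 7.94, 7.75 and 6.67 to 12.4, 10.1 and 9.68 FPKM. Of the calls named for 769-P, that of FZD2 held without any 1 library but was lost with all 12 libraries in one fit (adjusted p = 0.622, limma). That fit takes the spread from both lines, and FZD2 ranged from 16.6 to 64.0 FPKM in ACHN. The same fit ended the calls of CCND1 (0.332), BAMBI (0.149), DKK3 (0.121) and FZD1 (0.111), and the fit with no filter those of FZD1 (0.0945), DKK3 (0.0933), CBY1 (0.0826) and BAMBI (0.0794). The calls of CCND1 and CTNNBIP1 were lost without siNUF2 repeat 3 or siControl repeat 3, and for CTNNBIP1 also without siNUF2 repeat 2 (adjusted p 0.0510 to 0.0629, limma). BAMBI was lost without siNUF2 repeat 2 or 3 or siControl repeat 1 or 3 (0.0675 to 0.104), CBY1 without any library but siNUF2 repeat 1 (0.058 to 0.121), FZD1 without any but siControl repeat 1 (0.0718 to 0.118), and DKK3 without any 1 library (0.0547 to 0.115).

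In ACHN, 56 genes of the list could be tested. None passed without the block (limma, 4 at an unadjusted p under 0.05), and with it 4 rose, TCF7L1 included, and 2 fell, which is close to the 7.14 and 5.05% of all genes. ROR1, a receptor for WNT5A-type signals, went from 4.61, 5.56 and 8.19 FPKM under siControl to 7.49, 8.70 and 13.2 FPKM under siNUF2 (0.69, adjusted p = 0.616 without and 0.0118 with the block, limma). CBY1 went from 3.46, 3.62 and 3.68 to 5.43, 5.01 and 5.12 FPKM (0.54, adjusted p = 0.224 and 0.0191, and 0.0245 without the block over all 12 libraries), with no overlap, and the co-repressor TLE3 from 1.38, 1.60 and 1.51 to 1.81, 2.60 and 2.25 FPKM (0.55, adjusted p = 0.446 and 0.0326). LGR4 and TLE1 were the genes lower with the block, at -0.32 and -0.23. With the block and no filter none of these 5 genes passed (adjusted p 0.0626 to 0.111, limma), as 0 of all genes did. Of these 5 genes, the fit over all 12 libraries without the block, which takes the spread from both lines, called CBY1 only. It gave an adjusted p of 0.292 for ROR1, 0.11 for TLE3, 0.938 for LGR4 and 0.821 for TLE1 (limma). CCND1 in ACHN was 93.7, 22.7 and 49.5 FPKM under siNUF2 and 110, 27.7 and 75.3 FPKM under siControl, lower in each repeat, with the lowest values of both siRNAs in repeat 2 (-0.35, adjusted p = 0.989 and 0.0556). The part of what set the ACHN repeats apart in these results was not tested.

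Among the genes whose pattern was most like that of TCF7L1 over the 12 libraries, after the mean of each line had been removed, were OPA1 (Pearson's r 0.932), TSPAN17 (0.929), CREB3 (0.927) and FOXP4 (0.925), of 12932 genes compared. Within the wider Wnt list CBY1 was nearest, at 0.918, and AMER1, a scaffold of the destruction complex, was the most opposed, at -0.772. These values describe likeness only, because the points share siRNA, repeat number and library, and any gene that followed the siRNA in both lines would score highly.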

How the data were processed

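RNA of 12 libraries was sequenced on an Illumina NovaSeq. The authors filtered reads with fastp and tested with DESeq2. The submitters' processing notes name HISAT2 2.0.5, featureCounts 1.5.0-p3 and hg38; the annotation release and the strand setting are not given in the sources used here. The authors deposited FPKM per gene and library, without counts, so a count test was not the main one.

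FPKM were scaled by a trimmed mean of log ratios (30% and 5%), filtered at 0.5 FPKM in at least 3 libraries of a fit, and log2(FPKM + 0.1) was fitted with limma 3.58.1 (eBayes with trend, two-sided, Benjamini-Hochberg over all genes tested, threshold 0.05) in R 4.3.3. A fold change on this scale understates changes of low genes. Each line was fitted alone, the baseline over the 6 siControl libraries, and the interaction over all 12. Single genes also had a two-sided exact permutation test.

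Exon lengths of GENCODE release 29 gave whole reads (within 0.05) for 96.6 to 96.9% of values under 200 reads, and 29157435 to 38681799 reads per library. These served for depth and for limma-voom. Precision is limited by the spread between libraries, and by counting for genes near the filter. No libraries were copies. Deviations of libraries with the same repeat number in the labels correlated at 0.190 to 0.355 within 769-P and at 0.460 to 0.735 within ACHN, so the numbers pair the libraries within a line. They did not across lines (-0.0553 to 0.0425).

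The 10 genes, the wider list and its roles were chosen with earlier results of these data known. Named are the 10 genes; of the wider list, up to 8 genes per comparison with the largest changes past the threshold with or without the block, and the highest gene of each role in each line; the 5 genes most like TCF7L1, of which 4 are reported here; and NUF2. Other genes are named in counts of 5 or fewer or as examples, after their values were seen. Fits were tested on simulated data. Promoters are from RefSeq (GRCh38.p14). Tables, permutation tests and plots were made with pandas 2.3.3, SciPy 1.17.1, matplotlib 3.10.9 and NumPy 2.4.6 under Python 3.11.15.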

Additional observations from a re-analysis of the deposited data

Results flagged for a closer look

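The responses of 2 of the 62 tested genes of the wider list differed between the lines in the interaction fit with the replicate block (limma). The same fit called 1.39% of all genes, so this count is near the background. DKK3, a secreted glycoprotein of the Dickkopf family, had a difference of 0.77 on the log2 scale (769-P minus ACHN, adjusted p = 0.0377 with the block and 0.967 without it). It rose in 769-P, while in ACHN it was 45.7, 37.8 and 31.8 FPKM under siNUF2 and 58.3, 38.9 and 40.8 FPKM under siControl, lower in each repeat. TLE3, a co-repressor that TCF/LEF factors recruit, had a difference of -0.76 (adjusted p = 0.0497 with the block and 0.905 without it). It was 1.62, 1.66 and 1.63 FPKM under siNUF2 and 2.03, 2.04 and 1.75 FPKM under siControl in 769-P, and went the other way in ACHN. The 19 alternatives gave differences of 0.58 to 0.90 for DKK3 and of -0.89 to -0.52 for TLE3, and for each gene only the fit with the block passed the threshold. The block with no filter was not run for the interaction.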

How the results depend on the processing

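Without the block, genes called in 769-P numbered 1420; other settings gave 649 (no filter), 771 (all 12 libraries in one fit), 347 to 1122 (each library left out in turn), 3897 (replicate block) and 1513 (block and no filter). In ACHN, 0 became 1843 with the replicate block, 0 again with the block and no filter (5362 at an unadjusted p under 0.05) and 172 with all 12 libraries in one fit. The interaction, 0 without the block, gave 2 at a pseudocount of 0.01, 15 with no filter, 0 to 1 with a library left out and 230 with the replicate block. At baseline the counts stayed between 8058 and 11191. There the replicate block, whose numbers do not pair the lines, moved 9445 to 9126 and ended the call of APC (adjusted p = 0.0588, limma). Among the 8 members tested, the block changed no call besides this one and that of TCF7L1 in ACHN.

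Signs turned only among values that passed no test without the block. With a library left out, log2 fold changes ran from -0.093 to 0.032 for LRP5 in 769-P, and in ACHN from -0.085 to 0.25 for LRP5, -0.040 to 0.058 for GSK3B, -0.073 to 0.16 for CTNNB1, -0.31 to 0.044 for TCF7L2, -1.01 to 0.41 for LGR4 and -0.48 to 0.028 for TLE1. GSK3B in ACHN was -0.0048 with FPKM as deposited and -0.0098 without both libraries of repeat 2. The interaction ran from -0.28 to 0.049 for LRP5, -0.0365 to 0.10 for LRP6, -0.10 to 0.22 for TCF7L1 and -0.012 to 0.34 for TCF7L2, and for TCF7L1 it was -0.15 at a pseudocount of 1. TCF7L2 at baseline ran from -0.11 to 0.24. The cause was not tested.

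Limma-voom, leaving out both ACHN libraries of repeat 2, and the block with no filter were chosen after seeing the data. With limma-voom, TCF7L1 in 769-P gave 0.88 (adjusted p = 0.0576). Counts of the members were lowest for AXIN2, NKD1 and, in 769-P, TCF7L1, at 2 to 110 reads per library, and the part of counting error in their spread was not tested.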
